A study of Mus musculus with 10 samples.

Results

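The transcripts described here code for the Kv1 channels of sensory neurons, their beta subunits and the silent Kv9 subunits: Kcna1, Kcna2, Kcna3, Kcna4, Kcna6, Kcnab1, Kcnab2, Kcns1 and Kcns3. These 9 genes were taken by symbol from a table of 40481 genes, at 1 Ensembl gene each, and all 9 had enough counts to be tested. The samples were dorsal root ganglia of C57BL/6 mice, where the somata of sensory neurons lie. A group of 5 libraries came from mice given oxaliplatin (10 mg/kg in the labels, with a treatment of 8 weeks in the design text), and 5 libraries came from mice given vehicle. Oxaliplatin is a platinum drug against colorectal cancer that damages sensory nerves. The labels do not state that each library came from its own animal, so p-values measure the spread between these libraries. A ganglion holds neurons, satellite glia, Schwann cells, vessels and immune cells, and in such bulk samples fewer cells of a type and less RNA per cell cannot be told apart.

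Kv1 channels are voltage-gated potassium channels that open near the resting potential and restrain repetitive firing. Their pore is a tetramer of Kcna subunits, and in myelinated axons they cluster beside the node of Ranvier, under the myelin of the juxtaparanode. Kcnab genes code for cytoplasmic beta subunits related to aldo-keto reductases: Kcnab1 adds fast inactivation to the current, and Kcnab2 helps channels to reach the axon membrane. Kcns genes code for Kv9 subunits, which form no working channel alone and join Kv2 subunits, whose currents they change.

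In GENCODE M21 (GRCm38) the members have these positions, which place Kcna2 with Kcna3 and Kcna1 with Kcna6 in close pairs. Kcna1 (ENSMUSG00000047976) spans chr6:126640397-126646384 and Kcna6 (ENSMUSG00000038077) chr6:126708329-126740674. Kcna2 (ENSMUSG00000040724) spans chr3:107101146-107115005, and Kcna3 (ENSMUSG00000047959), a gene of 1 exon block, chr3:107036169-107038070. Kcna4 (ENSMUSG00000042604) spans chr2:107290639-107298502. The beta subunit gene Kcnab1 (ENSMUSG00000027827) spans chr3:65109384-65378223 and Kcnab2 (ENSMUSG00000028931) chr4:152390742-152477871. Kcns1 (ENSMUSG00000040164) spans chr2:164163619-164171113 and Kcns3 (ENSMUSG00000043673) chr12:11090202-11151056.

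The libraries held 52963470 to 60984426 counts, and 18401 genes were tested. General neuron markers were abundant in every library, with a summed level of 15710 to 17140 CPM (counts scaled to a common library size with TMM factors) after oxaliplatin and 16960 to 20060 CPM after vehicle. The sample label of a nerve ganglion therefore had its defining markers. A pair of libraries stood apart by tissue markers: oxaliplatin replicate 1 by fat cell transcripts (Cfd at 457 CPM) and, among oxaliplatin libraries, skeletal muscle transcripts, and vehicle replicate 5 by axon injury transcripts (Sprr1a at 189 CPM). For members and their ratios, the value without them is given where leaving them out moved it by over 1.5 times or changed a call. Listed genes that lost a call without them are named with the cell markers.

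The pore-forming members share the stretch that codes for the potassium selectivity filter, and it is shown here because it is what makes these proteins potassium channels and because their reads must be told apart. Each line is 27 bases of the coding strand, 5′ to 3′, from the GENCODE M21 transcripts (GRCm38), and capitals mark the 5 codons of the filter.
Kcna1: atgaccACTGTGGGATACGGTgacatg
Kcna2: atgacaACTGTAGGCTATGGAgacatg
Kcna3: atgacaACTGTTGGTTATGGTgatatg
Kcna4: atgacaACTGTGGGCTATGGGgacatg
Kcna6: atgaccACGGTAGGTTATGGGgacatg
Kcns1: atgaccACAGTGGGCTATGGGgatgtg
Kcns3: atgaccACAGTGGGCTATGGAgacacc
These stretches lie in coding exons at chr6:126642222-126642248 (Kcna1, minus strand), chr3:107105218-107105244 (Kcna2, plus strand), chr3:107037605-107037631 (Kcna3, plus strand) and chr2:107296489-107296515 (Kcna4, plus strand). The others lie at chr6:126738641-126738667 (Kcna6), chr2:164164848-164164874 (Kcns1) and chr12:11091569-11091595 (Kcns3), all on the minus strand. Within the filter codons Kcna4 differs from Kcns1 at 1 of its bases, and Kcna1 differs from Kcna6 at 5. Over whole transcripts no member shared a stretch of 50 bases with another member. Stretches of 50 bases shared with other genes made up 0.515% of Kcna2, 0.324% of Kcna3, 0.816% of Kcnab1 (with A330015K06Rik, on the opposite strand) and 1.33% of Kcnab2 (with Gm16334, on the same strand). Gm16334 held 44 to 95 counts after oxaliplatin and 32 to 62 after vehicle. Kcna6 shared most, at 38.8%, in Kcna5 and in Gm26673, the overlapping gene on the opposite strand. Gm26673 held 92 to 204 counts after oxaliplatin and 85 to 164 after vehicle. The sources used here do not say whether counting used strand, so the reads of Kcna6 and Gm26673 cannot be told apart where the genes overlap.

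Levels per length spanned a wide range. Kcnab2 stood highest at 128 ± 8.69 CPM per kb of exon after oxaliplatin and 123 ± 9.80 after vehicle (mean ± SD, n = 5 and 5). Kcna1 followed at 59.9 ± 2.33 and 61.7 ± 3.33 CPM per kb, and Kcnab1 at 19.6 ± 1.16 and 23.5 ± 3.21. Kcnab2, Kcna1 and Kcnab1 did not overlap in level in either group. Kcns3 (9.82 ± 0.840 and 10.6 ± 1.36 CPM per kb) and Kcna6 (9.59 ± 0.375 and 10.36 ± 0.755) overlapped, as did Kcna4 (4.80 ± 0.600 and 4.21 ± 0.712) and Kcns1 (4.01 ± 0.494 and 3.91 ± 0.544). Kcna2 and Kcna3 were lowest, at 0.492 ± 0.0590 and 0.411 ± 0.105 CPM per kb after oxaliplatin and at 0.559 ± 0.0621 and 0.242 ± 0.113 after vehicle. They overlapped after oxaliplatin and not after vehicle.

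**Figure D1:**
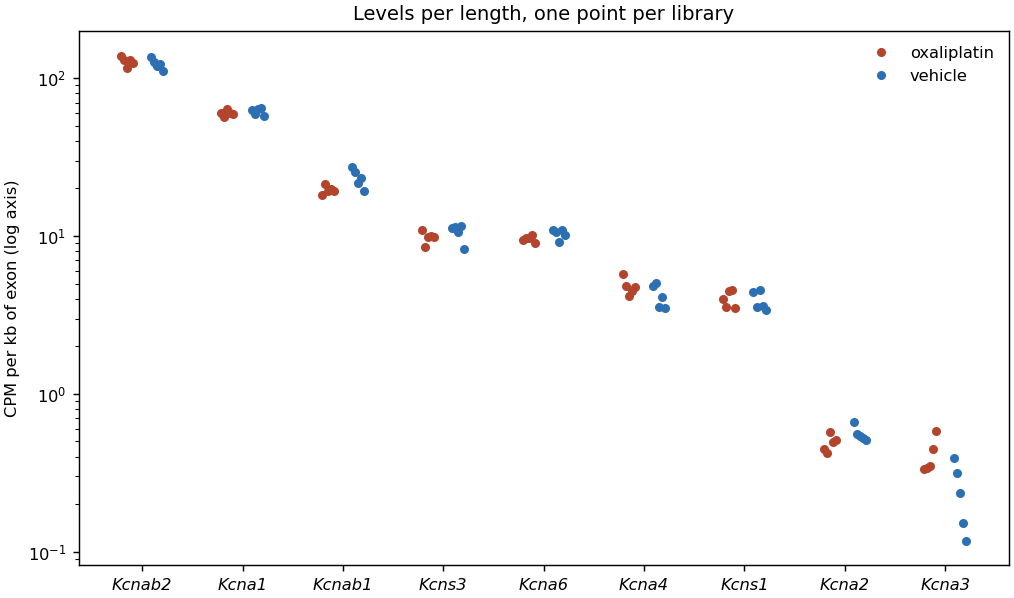
Level of each member per kb of exon, in CPM per kb on a log axis, with 1 point for each library of the oxaliplatin and vehicle groups. Kcnab2 and Kcna1 lie highest (means of 128 and 59.9 CPM per kb after oxaliplatin), and Kcna2 and Kcna3 lie lowest (0.492 and 0.411 CPM per kb).

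Kcna1 exceeded Kcna2 per length by 110 to 135 times (median 120.3) in oxaliplatin libraries and by 94.7 to 124 times (median 111) in vehicle libraries. Lengths are the joined exons of GENCODE M21, in which Kcna2 spans 11906 bases and Kcna1 4780. Which annotation lies behind the deposited counts is not stated. Had Kcna2 been counted over a shorter model, its level per length would be higher than printed, while comparisons of Kcna2 between the groups would not depend on that length.

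None of the 9 members passed the threshold between oxaliplatin and vehicle (adjusted p of at least 0.116 for each by edgeR's quasi-likelihood test), where 2.04% of all tested genes did, 1.27% higher and 0.772% lower. At an unadjusted p below 0.05 there were 2 members, Kcnab1 and Kcna3, or 22.2% of the 9, against 16.3% of all tested genes. DESeq2 called 0 members and limma voom with quality weights called 1, Kcnab1. No member had groups without overlap, which 4.02% of all tested genes had, 2.25% higher and 1.77% lower. The log2 fold changes had a median of -0.04 over the members and 0.01 over all tested genes, with 4 members above 0 and 5 below.

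**Figure D2:**
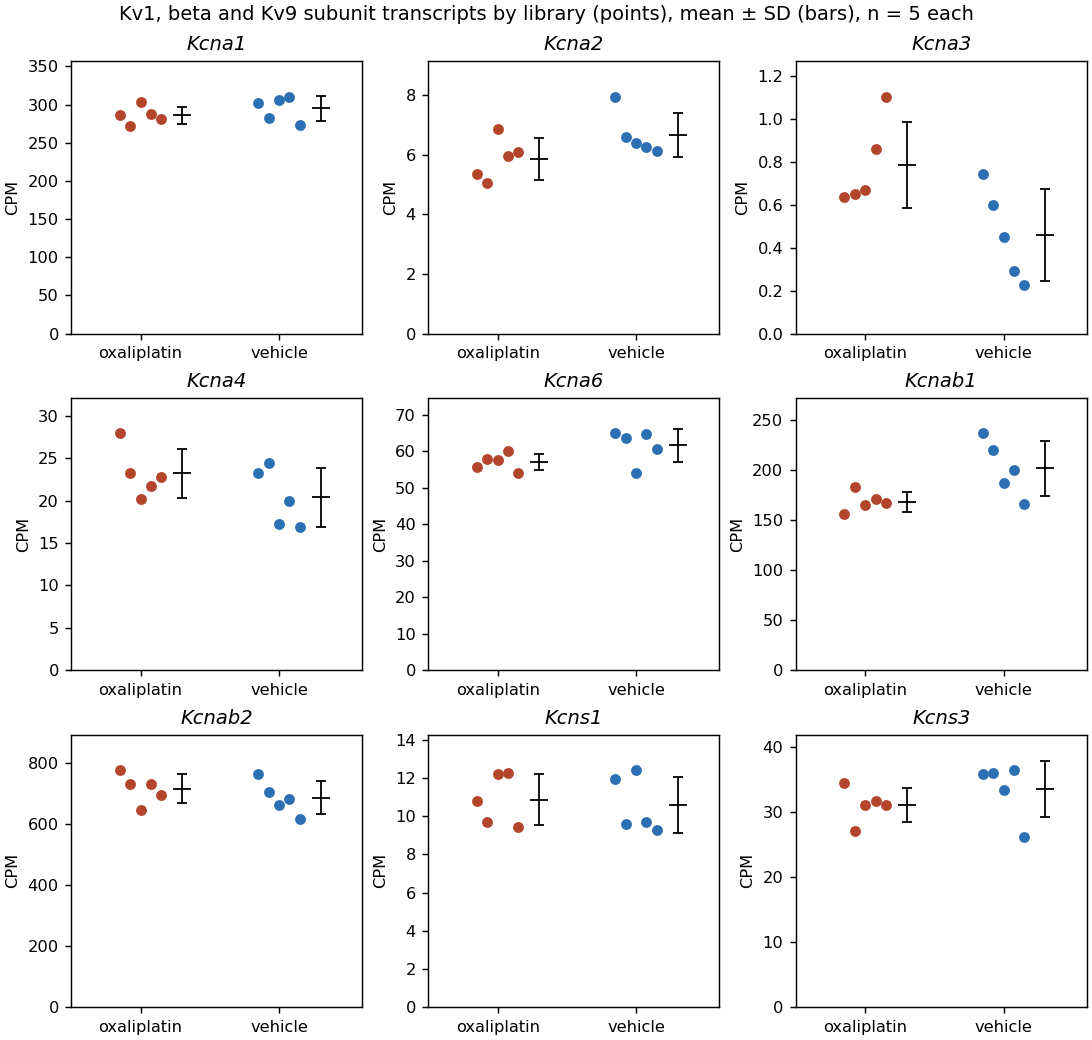
CPM of each member in every library, with its own axis from 0 in each panel; points are libraries and bars the mean ± SD of 5. The groups overlap in every panel, and Kcnab1 has 4 of 5 oxaliplatin libraries between 156 and 171 CPM against a vehicle range of 166 to 237 CPM.

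Kcna1, the main Kcna transcript of these ganglia, had 286, 273, 303, 287 and 282 CPM in oxaliplatin libraries 1 to 5 and 302, 283, 306, 310.5 and 273.5 CPM in vehicle libraries 1 to 5. No library stood out, and the groups covered nearly the same range. Kcna1 had a log2 fold change of -0.04 ± 0.05 (SE, edgeR adjusted p = 0.757). Its 95% interval ran from 0.896-fold to 1.05-fold, so larger changes of the summed transcript lay outside the interval. Without vehicle replicate 5 the estimate was -0.07.

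Kcna2 codes for the subunit that joins Kcna1 in juxtaparanodal channels. It had 5.35, 5.04, 6.86, 5.945 and 6.075 CPM after oxaliplatin and 7.94, 6.59, 6.40, 6.24 and 6.11 CPM after vehicle. All oxaliplatin libraries but replicate 3 lay below the lowest vehicle library. Oxaliplatin libraries held 295 to 401 Kcna2 counts and vehicle libraries 328 to 439. Its log2 fold change was -0.19 ± 0.13 (edgeR adjusted p = 0.505), with an interval of 0.732-fold to 1.06-fold.

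Kcna4 codes for the only member of its family here whose own N-terminus gives a fast-inactivating current, and in rats it marks small sensory neurons. It had 27.9, 23.3, 20.2, 21.7 and 22.8 CPM after oxaliplatin and 23.3, 24.5, 17.2, 19.95 and 16.9 CPM after vehicle. Oxaliplatin replicate 1 was highest, and the other oxaliplatin libraries lay within the vehicle range. The groups differed by a log2 fold change of 0.19 ± 0.12 (edgeR adjusted p = 0.460), with an interval of 0.960-fold to 1.35-fold. It was 0.115 without oxaliplatin replicate 1 and 0.0522 without that library and vehicle replicate 5 together.

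Kcna6 had 55.7, 57.8, 57.55, 59.9 and 54.0 CPM after oxaliplatin and 64.9, 63.5, 54.1, 64.7 and 60.7 CPM after vehicle. Of the vehicle libraries 4 lay above every oxaliplatin library, and vehicle replicate 3 lay at the low end. For Kcna6 the estimate was a log2 fold change of -0.11 ± 0.07 (edgeR adjusted p = 0.440), with an interval of 0.840-fold to 1.02-fold, and the overlap with Gm26673 applies.

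Kcna3, the channel known from T cells and macrophages, was near the lower limit of detection at 35, 38, 39, 53 and 66 counts after oxaliplatin and 41, 32, 25, 17 and 12 counts after vehicle. Oxaliplatin replicates 4 and 5 were above every vehicle library, and the other oxaliplatin libraries lay within the vehicle range. On these counts the log2 fold change was 0.76 ± 0.35 (unadjusted p = 0.0453, edgeR adjusted p = 0.295), with an interval of 1.01-fold to 2.85-fold. Among markers of immune cells, the 6 T cell markers summed to 4.10 to 5.58 CPM after oxaliplatin and 3.69 to 5.11 CPM after vehicle, and Cd3d, Cd3g and Cd8a were too low to be tested. None of the 3 tested T cell markers passed. Of 7 macrophage markers 0 rose and 1, Cx3cr1, had a log2 fold change of -1.73 ± 0.32 and so fell (adjusted p = 0.0145, edgeR), at a list median of -0.41. The macrophage markers summed to 25.7 to 36.1 CPM after oxaliplatin and 28.0 to 52.5 CPM after vehicle. Cd4 of the T cell list and Cd68 and Mrc1 of the macrophage list lay above 0, and none of these passed. Cd4 was at 0.63 ± 0.34 (edgeR adjusted p = 0.367), Cd68 at 0.44 ± 0.29 and Mrc1 at 0.37 ± 0.19 (edgeR adjusted p = 0.489 and 0.346). Below 0 lay 2 T cell and 5 macrophage markers. Cd74, the invariant chain of antigen-presenting cells, which is on neither list and was chosen after its values were seen, had 24.1 to 47.9 CPM after oxaliplatin and 124 to 209 CPM after vehicle, without overlap. The part of either cell type in the Kcna3 value was not tested.

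**Figure D3:**
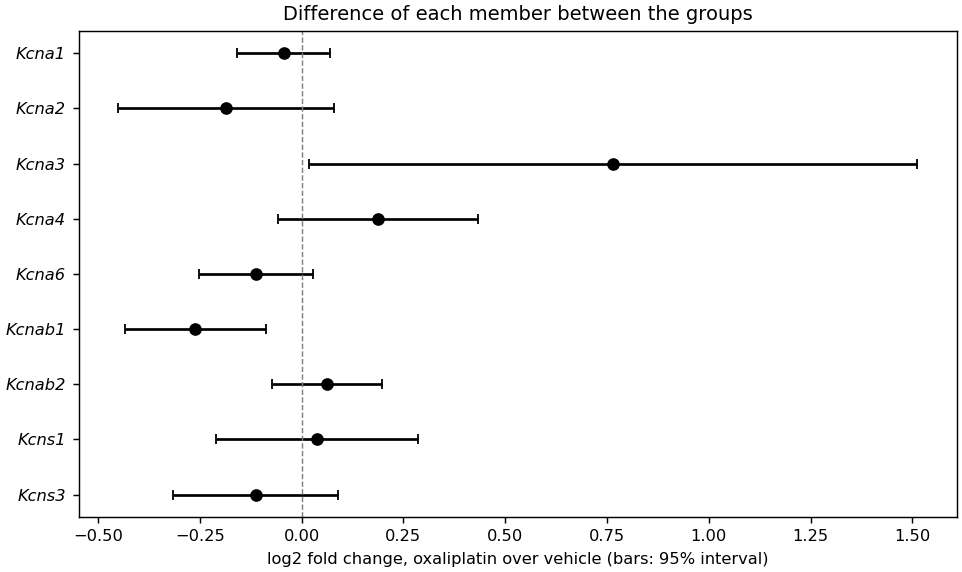
Log2 fold change of each member, oxaliplatin over vehicle, with its 95% interval. The intervals of Kcnab1 and Kcna3 exclude 0 without adjustment for the number of genes, and Kcna1 has the narrowest (0.896-fold to 1.05-fold).

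Of the members, the beta subunit gene Kcnab1 had the smallest p between the groups (unadjusted p = 0.00554, edgeR). Kcnab1 had 156, 183, 165, 171 and 167 CPM after oxaliplatin and 237, 219.6, 187, 200.3 and 166 CPM after vehicle. Vehicle replicate 5 lay within the oxaliplatin range, and the other vehicle libraries lay above every oxaliplatin library. Kcnab1 had a log2 fold change of -0.26 ± 0.08, or 0.834-fold with an interval of 0.740-fold to 0.941-fold, and it did not pass over all genes (edgeR adjusted p = 0.116). Without vehicle replicate 5, the library high in axon injury transcripts, the log2 fold change was -0.32 and the edgeR adjusted p 0.0311. It was -0.23 without oxaliplatin replicate 1 (edgeR adjusted p = 0.256) and -0.30 without both libraries (edgeR adjusted p = 0.0666), and neither passed. With all libraries, limma voom with quality weights gave -0.30 and an adjusted p of 0.0333. Over all alternatives the adjusted p ran from 0.0311 to 0.585, and the direction was the same in each.

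Kcnab2, the most abundant member, had 776, 731, 646, 730.5 and 694 CPM after oxaliplatin and 763, 705, 662, 682 and 615 CPM after vehicle. The groups overlapped over most of their range. Kcnab2 had a log2 fold change of 0.06 ± 0.06 (edgeR adjusted p = 0.692), with an interval of 0.951-fold to 1.146-fold. The estimate was 0.0341 without oxaliplatin replicate 1, 0.0264 without vehicle replicate 5 and -0.0059 without both.

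The ratio of Kcnab1 to Kcnab2 within a library, in which the scaling factor of that library cancels, was lower after oxaliplatin. It was 0.201, 0.251, 0.2555, 0.234 and 0.241 in oxaliplatin libraries 1 to 5 and 0.310, 0.311, 0.282, 0.294 and 0.270 in vehicle libraries 1 to 5. Every oxaliplatin library lay below every vehicle library. Among single tested genes 4.02% had groups without overlap, and the share of other gene pairs that separate likewise was not computed. The members were chosen with earlier results of these data known. The mean log2 ratio was -2.09 ± 0.14 after oxaliplatin and -1.77 ± 0.09 after vehicle (SD, n = 5 and 5). The difference of -0.32, a ratio 0.804 times that of vehicle, had a p of 0.00794 (two-sided exact permutation test), the smallest that 5 against 5 libraries allow. Adjusted over the 4 ratios tested the p was 0.0317. Without oxaliplatin replicate 1, the library high in fat cell transcripts, the difference was -0.26 and the adjusted p 0.0635, and the remaining groups did not overlap either. Without that library and vehicle replicate 5 together it was -0.29, with an adjusted p of 0.114 in the exact permutation test. There the raw p of 0.0286 is the smallest that 4 against 4 libraries allow.

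**Figure D4:**
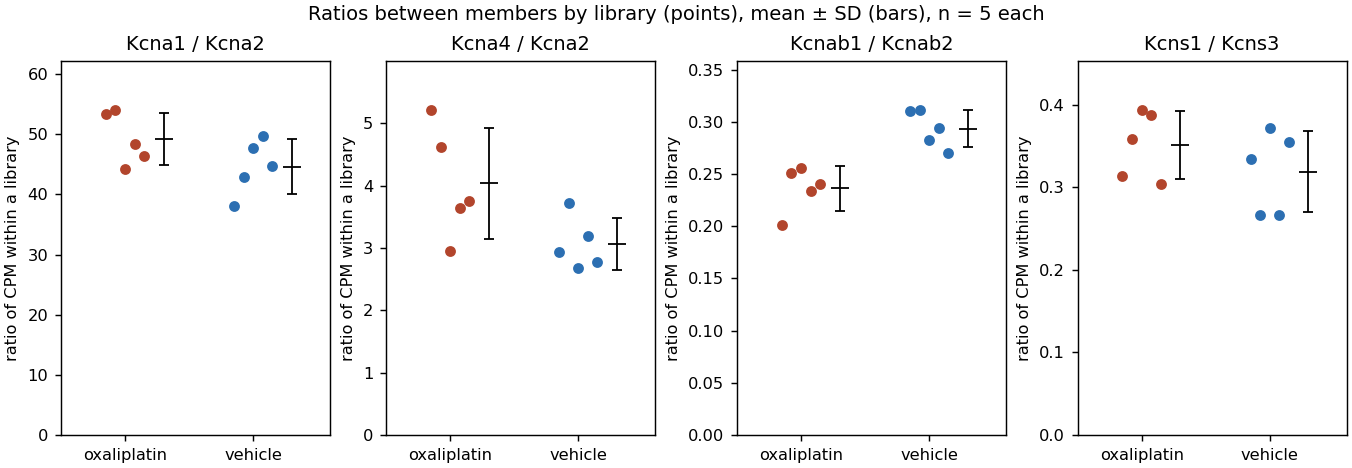
Ratios of CPM between pairs of members within each library; points are libraries, bars the mean ± SD of 5, and each axis starts at 0. The Kcnab1 to Kcnab2 ratio is 0.201 to 0.2555 in oxaliplatin libraries and 0.270 to 0.311 in vehicle libraries, while the other 3 ratios overlap between the groups.

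The other ratios did not pass. Kcna4 over Kcna2 was 2.95 to 5.22 after oxaliplatin and 2.69 to 3.72 after vehicle, a log2 difference of 0.38 (exact permutation test, adjusted p = 0.111). Kcna1 over Kcna2 differed by 0.14 (exact permutation test, adjusted p = 0.201), and Kcns1 over Kcns3 by 0.15 (exact permutation test, adjusted p = 0.286). The Kcna4 ratio passed without oxaliplatin replicate 3, at a difference of 0.49 (exact permutation test, adjusted p = 0.0476). Without oxaliplatin replicate 1 and vehicle replicate 5 together the Kcna4 difference was 0.248 and the Kcns1 difference 0.226.

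Marker levels also differed between the groups, and their correlation with the beta subunit ratio across libraries was not computed. The mean log2 CPM of the 11 general neuron markers was 8.97 to 9.02 after oxaliplatin and 9.04 to 9.15 after vehicle, without overlap, though none of the 11 passed the test. Among 3 nuclear-retained RNAs chosen for RNA quality 2 rose, Neat1 (0.33 ± 0.07) and Meg3 (0.32 ± 0.08, edgeR adjusted p = 0.0256 and 0.0492), and their mean was 10.24 to 10.46 after oxaliplatin and 9.96 to 10.15 after vehicle. Endothelial markers, of which 2 of 3 rose, had a mean of 3.20 to 3.49 after oxaliplatin and 2.43 to 3.15 after vehicle, also without overlap. Smooth muscle markers, from a tissue that also uses Kcnab1, had 0 of 4 past the threshold. All 4 lay above 0, at a median log2 fold change of 1.04. Summed, they had 73.7 to 164 CPM after oxaliplatin and 33.3 to 77.7 CPM after vehicle. Their part in the ratio was not tested.

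Kcnab1 and Kcnab2 each start from several places in RefSeq, with 3 start-site windows per gene, and the deposited counts sum over the starts that their annotation assigned to each gene. A change of use between the starts of Kcnab1, whose products differ at the N-terminus, would therefore not show as such. The Kcnab1 windows at chr3:64948962-64949261 and chr3:65108764-65109063 lie upstream of the M21 gene, which begins at 65109384. Exons before that base are not in the length used for CPM per kb, and whether the counts include them is not known. The windows are 250 bases before to 50 after a start, from RefSeq on GRCm38.p6, and are printed 5′ to 3′ on the gene's strand. They belong to the genes whose ratio differed, and 1 of the 3 Kcnab2 windows is printed. Capitals mark GGGCGG or its reverse CCGCCC (a GC box), CACGTG (an E-box, its own reverse) and TATAAA or its reverse TTTATA, searched on both strands, with no overlap between matches.
Kcnab1 at chr3:64948962-64949261, plus strand: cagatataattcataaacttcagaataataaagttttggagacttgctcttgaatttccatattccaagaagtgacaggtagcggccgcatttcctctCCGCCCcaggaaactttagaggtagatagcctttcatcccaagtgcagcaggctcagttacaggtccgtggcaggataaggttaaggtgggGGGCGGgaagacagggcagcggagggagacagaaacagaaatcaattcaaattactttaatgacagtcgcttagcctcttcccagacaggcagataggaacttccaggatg
Kcnab1 at chr3:65108764-65109063, plus strand: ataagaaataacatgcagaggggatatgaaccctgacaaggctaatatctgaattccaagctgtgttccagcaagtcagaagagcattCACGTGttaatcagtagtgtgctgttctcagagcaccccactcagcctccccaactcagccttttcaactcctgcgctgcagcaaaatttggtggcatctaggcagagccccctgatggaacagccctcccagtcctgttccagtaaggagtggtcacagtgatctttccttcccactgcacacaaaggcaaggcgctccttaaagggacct
Kcnab1 at chr3:65187853-65188152, plus strand: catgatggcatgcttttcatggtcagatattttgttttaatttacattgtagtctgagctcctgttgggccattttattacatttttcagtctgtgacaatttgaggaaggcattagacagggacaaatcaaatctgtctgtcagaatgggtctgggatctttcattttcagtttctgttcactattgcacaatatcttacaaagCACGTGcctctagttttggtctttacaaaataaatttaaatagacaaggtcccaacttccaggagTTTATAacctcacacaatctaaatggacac
Kcnab2 at chr4:152477500-152477799, minus strand: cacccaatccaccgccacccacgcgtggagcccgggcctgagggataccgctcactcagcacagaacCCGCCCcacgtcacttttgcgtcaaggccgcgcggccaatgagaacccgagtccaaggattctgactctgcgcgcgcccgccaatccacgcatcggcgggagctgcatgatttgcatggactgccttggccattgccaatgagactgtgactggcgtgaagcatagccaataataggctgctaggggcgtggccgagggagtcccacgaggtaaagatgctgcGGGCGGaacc
The printed Kcnab2 window holds 25 CG dinucleotides, and the Kcnab1 windows hold 7, 3 and 1 in the order printed, where the median over 32851 windows is 7. The other Kcnab2 windows hold 5 and 3, within the range of the Kcnab1 windows, and none of these motifs. Over all windows a GC box occurs in 35.7%, an E-box in 7.15% and TATAAA in 13.6%. The E-box occurs in 2 of 3 Kcnab1 windows and in no window of the other members that have one. These matches describe letters and were not tested against any binding data.

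The Kv9 subunits did not pass. Kcns1 had 10.8, 9.69, 12.2, 12.3 and 9.43 CPM after oxaliplatin and 12.0, 9.62, 12.4, 9.73 and 9.28 CPM after vehicle. In each group 2 libraries lay near 12 CPM and the other three lower, so the groups overlapped throughout. Its log2 fold change was 0.04 ± 0.12 (edgeR adjusted p = 0.921), with an interval of 0.864-fold to 1.22-fold, and over 21 alternatives it was just below 0 in 5 and reached 0.40 with the neuron marker level as a covariate.

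Kcns3 had 34.5, 27.1, 31.0, 31.7 and 31.0 CPM after oxaliplatin and 35.8, 36.1, 33.4, 36.5 and 26.2 CPM after vehicle. Oxaliplatin replicate 2 and vehicle replicate 5 were the low libraries of their groups. Kcns3 had a log2 fold change of -0.11 ± 0.10 (edgeR adjusted p = 0.614), with an interval of 0.804-fold to 1.06-fold. It was -0.0667 without oxaliplatin replicate 2, -0.19 without vehicle replicate 5 and -0.23 without vehicle replicate 5 and oxaliplatin replicate 1 together. Kcnb2, which codes for a Kv2 subunit that Kv9 subunits join, was at -0.10 ± 0.08 (edgeR adjusted p = 0.585).

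Of the other genes listed from these families, none of the 5 tested passed, at a median log2 fold change of 0.30. Kcna10 was at 0.47 ± 0.39, Kcns2 at 0.37 ± 0.34 and Kcna5 at 0.30 ± 0.30, with means of 0.705, 0.7725 and 1.40 CPM after oxaliplatin and 0.510, 0.599 and 1.14 CPM after vehicle. Kcnab3 was at -0.02 ± 0.22. Kcna7, a channel gene of muscle, had 1 to 11 counts after oxaliplatin and 0 to 23 after vehicle and was not tested. Skeletal muscle markers, 0 of 3 past the threshold, summed to 5.88 to 15.2 CPM in oxaliplatin replicates 2 to 5 and 569 CPM in oxaliplatin replicate 1, and to 75.9 to 387 CPM after vehicle. All oxaliplatin libraries but replicate 1 lay below every vehicle library.

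Among 13 genes for proteins of the Kv1 complex and the juxtaparanode, the transcript of 1 fell and none rose, where 0.772% of all tested genes were lower and 1.27% higher. Lgi3, a secreted protein that binds receptors of the ADAM22 family, fell to 51.8 ± 2.36 CPM after oxaliplatin, against 64.0 ± 5.21 CPM after vehicle (n = 5 and 5). The oxaliplatin libraries lay between 48.9 and 55.25 CPM and the vehicle libraries between 59.25 and 70.9 CPM, without overlap. Lgi3 thus had a log2 fold change of -0.30 ± 0.07 (edgeR adjusted p = 0.0298). It lost the call in 6 of 10 fits without 1 library (oxaliplatin replicate 1, 3, 4 or 5 or vehicle replicate 3 or 4), at adjusted p values of up to 0.102. Adam23, an axonal LGI receptor, was at -0.30 ± 0.12 (edgeR adjusted p = 0.237), the scaffold gene Dlg1 at 0.26 ± 0.13 (edgeR adjusted p = 0.343) and the Schwann cell gene Lgi4 at 0.21 ± 0.11 (edgeR adjusted p = 0.361). Cntnap2 and Cntn2, the Caspr2 and TAG-1 proteins that anchor the channels, were at -0.04 ± 0.10 and 0.07 ± 0.10 (edgeR adjusted p = 0.883 and 0.787) and are named besides the rule. The list had a median of -0.04, with 5 genes above 0 and 8 below.

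None of the 8 node and paranode genes passed, at a median of -0.07. The nodal scaffold Ank3 was at 0.12 ± 0.07 and the nodal sodium channel Scn8a at -0.14 ± 0.10 (edgeR adjusted p = 0.434 and 0.552). The adhesion genes Nfasc and Nrcam were at -0.09 ± 0.08 and -0.08 ± 0.07 (edgeR adjusted p = 0.628 and 0.644).

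**Figure D5:**
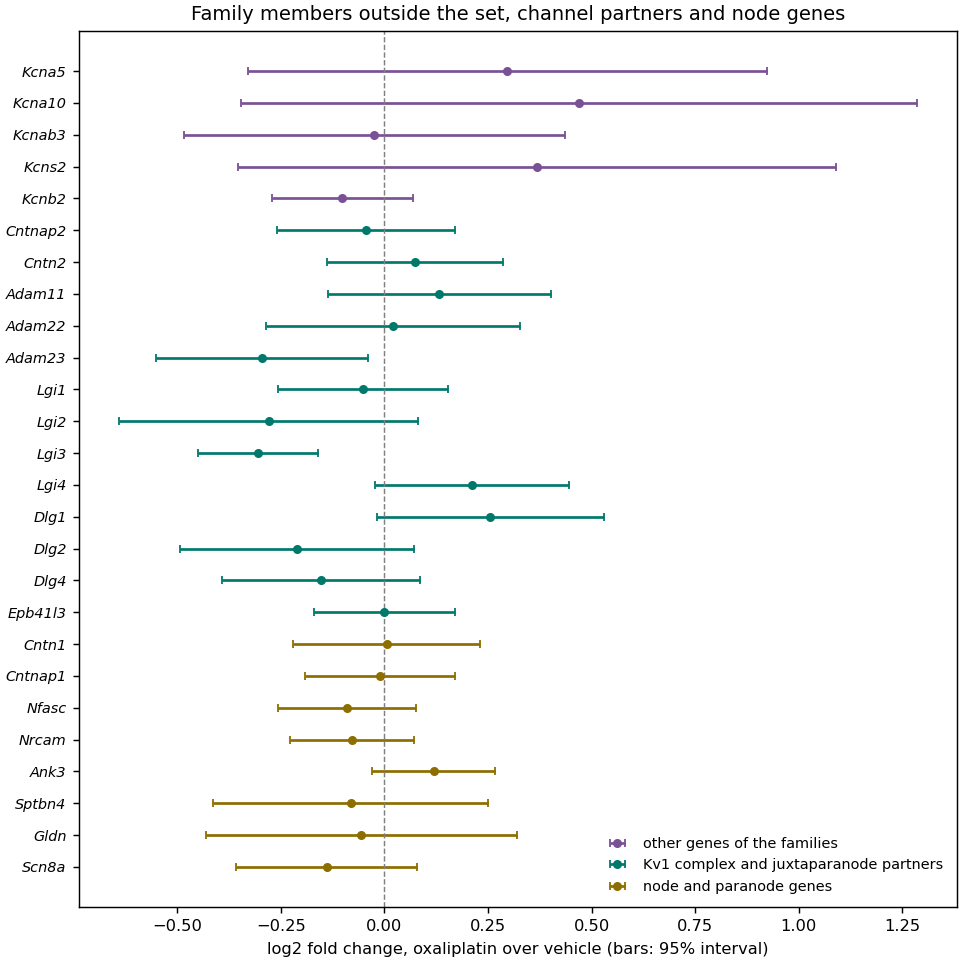
Log2 fold change with its 95% interval for other family genes, juxtaparanode partners and node genes, oxaliplatin over vehicle. Lgi3, at -0.30, is the gene past the adjusted threshold; the intervals of low genes such as Kcna10 and Kcns2 are the widest.

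Markers of the cells that carry these transcripts changed in few members. Of 8 markers of large myelinated neurons, which use Kcna1 and Kcna2, 1 fell, the neurofilament Nefh (-0.63 ± 0.13, edgeR adjusted p = 0.0400). Of 11 markers of small neurons 1 fell, the ATP receptor P2rx3 (-0.31 ± 0.07, edgeR adjusted p = 0.0314). Of 8 myelinating Schwann cell markers 1 rose, Drp2 (0.47 ± 0.09, edgeR adjusted p = 0.0119), at a list median of 0.33. Of 5 satellite glia markers 1 rose, Glul (0.38 ± 0.08), and 1 fell, Fabp7 (-0.98 ± 0.18, edgeR adjusted p = 0.0223 and 0.0298). Of 3 endothelial markers 2 rose, Pecam1 (0.98 ± 0.18) and Cdh5 (0.69 ± 0.17, edgeR adjusted p = 0.0164 and 0.0480). Neither the 2 tested fat cell markers nor the 4 axon injury markers passed. All 4 axon injury markers lay below 0, at a median log2 fold change of -1.599. Sprr1a had 9.28, 4.08, 1.29, 11.6 and 189 CPM in vehicle libraries 1 to 5. Every oxaliplatin library lay below every vehicle library in Sprr1a, and the other axon injury markers overlapped between the groups. Of the 11 called list genes, Lgi3, Neat1 and Meg3 included, 1, Drp2, stayed past the threshold in each fit that left out 1 library. Without oxaliplatin replicate 1 the call was lost by Nefh, P2rx3, Fabp7, Cdh5, Meg3 and Lgi3. Nefh, Fabp7 and Meg3 lost it without vehicle replicate 5. With both libraries left out, Nefh, P2rx3, Fabp7, Meg3 and Lgi3 lost it.

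Libraries of a group differed from one another in Kcna1 by little, with a coefficient of variation of 3.90% after oxaliplatin and 5.40% after vehicle, and in Kcna3 by most, at 25.6% and 46.6%. After subtraction of each group's mean, the members did not all move together across the 10 libraries. The correlation of their deviations ran from -0.17 for Kcna4 with Kcns1 to 0.84 for Kcna4 with Kcnab2. These values are a description, since all members of a library share its depth and its scaling factor. Among 12259 other genes of at least 2 CPM, those whose deviations over the 10 libraries were most like Kcna1 were Atp2a2 (0.98), Hnrnpd (0.97), Tmcc1 (0.96), Negr1 (0.95) and Arap2 (0.94). Most like Kcnab2 were Fbxo40 (0.95), Lrrc75b (0.95), Cmtr1 (0.94), Camk2a (0.94) and Mks1 (0.94).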

How the data were processed

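Total RNA of 10 dorsal root ganglion samples was sequenced from SMARTer libraries, per the labels' protocols. The authors deposited raw read counts per Ensembl gene; their processing notes name STAR 2.5.1a, Partek and DESeq2, with no role given, and no source used here gives the build, annotation or counting step. The 276 repeated rows, identical to others, were dropped from 40757. Every pair of libraries of a group differed by more than sampling noise (lowest chi-square over degrees of freedom 12).

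Tests used edgeR 4.0.16 (R 4.3.3): filterByExpr, TMM, robust quasi-likelihood, no covariates, Benjamini-Hochberg adjustment over all tested genes, threshold 0.05. SE is the log2 fold change over the root of F. Ratios used log2 CPM with a prior count of 2 and an exact permutation test. The procedure was tested on simulated data. Alternatives were other scalings and filters, DESeq2 1.42.0, limma 3.58.1 voom, sva 3.50.0, a replicate block, a neuron marker covariate, a threshold of 0.1 and left-out libraries. Intervals cover these libraries' spread. The members, lists and naming rule (all members; up to 4 genes of smallest p per pathway list and called list genes; the 5 genes most correlated with Kcna1 and Kcnab2) were chosen with earlier results of these data known.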

Additional observations from a re-analysis of the deposited data

Results flagged for a closer look

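In a test of whether the highest or lowest library of a group of 5 stands apart by its gap to the next, 1 of 26 groups (members and ratios) was picked out, where chance gives about 1 in 20. It was Kcna2 in vehicle replicate 1, at 7.94 CPM, where vehicle replicates 2 to 5 had 6.11 to 6.59 CPM. Without that library the Kcna2 log2 fold change was -0.11 and still not past the threshold (edgeR adjusted p = 0.732).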

How the results depend on the processing

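The number of genes called over all, 376, was 920 with DESeq2, 804 with limma voom, 660 with the replicate block, 113 with 1 surrogate variable, 728 at a threshold of 0.1 and 218 without oxaliplatin replicate 1 and vehicle replicate 5 together. It was 1 with the neuron marker level as a covariate, which did not overlap between the groups, so that the covariate and the treatment cannot be told apart. It ran from 113 to 594 when 1 library was left out. Without a composition factor 303 were higher and 99 lower, against 234 and 142. The number of members called, 0, was 1 with limma voom and ran from 0 to 1 when 1 library was left out, in each case Kcnab1. The Kcnab1 to Kcnab2 difference kept its direction in all 13 alternatives. It lost the call without oxaliplatin replicate 1 (-0.26, exact permutation test, adjusted p = 0.0635). The difference lost it too in the fit with the replicate block (-0.32, exact sign-flip test, adjusted p = 0.125, where 5 pairs allow no raw p below 0.0625). It also did so without oxaliplatin replicate 1 and vehicle replicate 5 together (-0.29, exact permutation test, adjusted p = 0.114, an alternative chosen after seeing the data), where the raw p of 0.0286 is the smallest that 4 against 4 allow. Over left-out libraries it ran from -0.345 to -0.26, and the Kcna4 to Kcna2 difference from 0.28 to 0.49. The deviations of same-numbered libraries had correlations of -0.04 to 0.21, below 0.1 for 3 of 5 numbers, and 3 of 5 numbers matched their own best. The labels give no pairing, so the block was not used in the reported fits; a partial pairing is not excluded. With it Kcnab1 was at -0.25 (edgeR adjusted p = 0.0776). Values near 0 changed sign: Kcna1 to 0.0703 with the neuron covariate; Kcnab2 to -0.0148 with 1 surrogate variable and -0.0059 without the pair of libraries; Kcns1 to -0.0234 with 1 surrogate variable, -0.0073 and -0.0075 without oxaliplatin replicate 3 or 4, -0.0061 without vehicle replicate 5 and -0.0054 without the pair, with a range of -0.0075 to 0.1059 over left-out libraries. The cause was not tested. Under the filter of 1 CPM in 5 libraries Kcna3 was not tested; at 12 to 66 counts per library its depth leaves an interval of 1.01-fold to 2.85-fold.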
